A study of Homo sapiens with 12 samples.

Results

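The genes described here are CDKN2A and 5 genes near it on the short arm of human chromosome 9, in band 9p21: MLLT3, FOCAD, KLHL9, MTAP, CDKN2A and CDKN2B, in the order in which they lie on the chromosome. The set was chosen from a pattern seen in the arrays themselves, namely probe sets low on 9 arrays and bright on the 3 arrays labelled LSD2/eGFP/Flag vector. Not every gene in the set has this pattern, since CDKN2B was low on all 12 arrays and MLLT3 was low on none. All 14 probe sets that name 1 of these 6 genes are described, out of 19064 single-gene probe sets for 11963 genes. MLLT3 has 2 of them, FOCAD 1, KLHL9 2, MTAP 5, CDKN2A 3 and CDKN2B 1.

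Per the labels, the arrays hold total RNA of MDA-MB-231, a human breast cancer cell line without hormone receptors or HER2 amplification, in 4 stably transfected groups of 3 biological replicates each: LSD2 shRNA, Scramble shRNA as its control, LSD2/eGFP/Flag vector, and eGFP/Flag vector as its control. The labels give G418 at 800 ug/ml for every group, used to remove cells without a construct. LSD2, the product of KDM1B, removes methyl groups from lysine 4 of histone H3, and the study set cells with lowered or raised LSD2 against their controls. The labels give neither the promoter of the constructs nor whether a stable line was 1 clone, and nothing places the replicates in separate transfections, so a difference between groups and a difference between stable lines cannot be told apart and p-values measure the spread between these samples only.

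CDKN2A encodes a pair of unrelated tumour suppressors from separate first exons. The protein p16INK4a blocks the cyclin D kinases CDK4 and CDK6 and so keeps RB active, and ARF binds and restrains the ubiquitin ligase MDM2. CDKN2B encodes p15INK4b, a close relative of p16INK4a that also blocks CDK4 and CDK6. MTAP, the gene next to CDKN2A, encodes the enzyme that recycles methylthioadenosine, a by-product of polyamine synthesis, toward methionine. Deletion of this part of chromosome 9 is among the most common losses in human tumours and often takes MTAP along with CDKN2A, and MDA-MB-231 is known as a line that has lost CDKN2A. Copy number was not measured here.

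The promoters of the genes that the description turns on are shown because FOCAD, KLHL9, MTAP and CDKN2A had bright or raised probe sets on the same 3 arrays while CDKN2B, next to CDKN2A, did not. That of MLLT3, whose probe sets were also higher on these 3 arrays but low on no array, is not shown. Each line holds 300 bases, 250 before to 50 after a transcript start, read from RefSeq on GRCh38.p14 and written 5′ to 3′ on the gene's own strand. CDKN2A has 2 entries, the outer one farther upstream. Capitals mark GC boxes, the letters GGGCGG on either strand.
FOCAD (chr9:20684009-20684308, plus strand): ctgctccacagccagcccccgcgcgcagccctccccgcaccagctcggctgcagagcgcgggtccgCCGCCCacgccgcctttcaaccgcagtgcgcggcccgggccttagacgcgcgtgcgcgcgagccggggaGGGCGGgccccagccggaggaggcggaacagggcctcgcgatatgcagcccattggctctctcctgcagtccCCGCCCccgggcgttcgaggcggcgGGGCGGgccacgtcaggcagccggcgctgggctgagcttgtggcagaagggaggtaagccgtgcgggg
KLHL9 (chr9:21335355-21335654, minus strand): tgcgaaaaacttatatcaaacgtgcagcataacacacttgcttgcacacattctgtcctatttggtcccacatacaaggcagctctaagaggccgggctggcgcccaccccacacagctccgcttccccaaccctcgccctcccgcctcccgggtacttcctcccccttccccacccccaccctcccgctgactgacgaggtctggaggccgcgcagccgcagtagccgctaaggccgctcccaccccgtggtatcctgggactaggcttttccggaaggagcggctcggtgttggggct
MTAP (chr9:21802386-21802685, plus strand): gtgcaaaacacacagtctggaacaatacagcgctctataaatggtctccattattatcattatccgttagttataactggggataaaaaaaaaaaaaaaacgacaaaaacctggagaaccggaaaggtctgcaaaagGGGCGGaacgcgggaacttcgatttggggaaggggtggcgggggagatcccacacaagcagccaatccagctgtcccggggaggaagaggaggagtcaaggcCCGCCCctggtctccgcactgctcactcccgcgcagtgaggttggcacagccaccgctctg
CDKN2A, outer start (chr9:21995275-21995574, minus strand): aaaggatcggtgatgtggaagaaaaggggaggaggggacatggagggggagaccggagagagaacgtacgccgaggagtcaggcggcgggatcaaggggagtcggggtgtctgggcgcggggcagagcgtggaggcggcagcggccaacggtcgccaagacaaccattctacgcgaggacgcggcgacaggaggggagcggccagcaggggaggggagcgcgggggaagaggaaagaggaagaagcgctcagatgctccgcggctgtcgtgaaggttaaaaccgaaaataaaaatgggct
CDKN2A, inner start (chr9:21974808-21975107, minus strand): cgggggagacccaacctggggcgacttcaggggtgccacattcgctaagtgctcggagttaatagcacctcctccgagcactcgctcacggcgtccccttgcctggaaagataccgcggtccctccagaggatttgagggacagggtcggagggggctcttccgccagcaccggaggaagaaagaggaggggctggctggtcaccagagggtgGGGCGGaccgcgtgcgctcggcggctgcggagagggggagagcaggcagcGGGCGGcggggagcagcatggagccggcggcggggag
CDKN2B (chr9:22009256-22009555, minus strand): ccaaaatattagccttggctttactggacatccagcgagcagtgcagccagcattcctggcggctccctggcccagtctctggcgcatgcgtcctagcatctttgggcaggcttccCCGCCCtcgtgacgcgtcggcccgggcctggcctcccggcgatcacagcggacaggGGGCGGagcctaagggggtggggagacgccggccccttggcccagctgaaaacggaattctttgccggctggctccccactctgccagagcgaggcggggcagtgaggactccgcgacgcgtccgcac

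GC boxes were present in FOCAD (4), MLLT3 (3), MTAP (2), the inner CDKN2A start (2) and CDKN2B (2), and absent from this window of KLHL9 and of the outer CDKN2A start. Over 35116 RefSeq promoters of this length, 45% hold at least 1. The letters TATAAA were found in MTAP only among the 7 promoter windows of the 6 genes (11.5% of all promoters), and neither TTTGGCGC nor TTTCGCGC, forms of the E2F site, was found in any of the 7 windows on either strand (1.15% of all promoters). The windows held 39 CpG in FOCAD, 28 and 26 at the outer and inner CDKN2A starts, 25 in CDKN2B, 24 in MLLT3, 19 in KLHL9 and 15 in MTAP, against a median of 14 and an upper quartile of 28 over all promoters. Such matches describe letters and show no binding.

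The authors deposited log2 values, in which 1 unit is a factor of 2 in signal. The 6 shRNA arrays (medians 6.65 to 6.71) and the 6 vector arrays (medians 7.03 to 7.18) appear to have been normalized in separate runs. Levels are therefore also given as the percentile of a probe set within its own array, over 22215 probe sets that are not controls. A probe set is called low under percentile 33, which fell at 5.55 to 5.62 log2 units on the shRNA arrays and 5.74 to 5.80 on the vector arrays, and bright over percentile 80, which fell at 9.09 to 9.13 and 9.93 to 10.00. No detection call comes with the values, so differences among low ones rank nothing, and precision is set by the small number of arrays. No level of 1 probe set is tested against that of another. Where probe sets of different genes are set side by side, as along chromosome 9, it is by percentile and as a description. No difference in RNA amount between genes is read from this. The brightest probe set of a gene is chosen by its mean level.

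The 3 arrays labelled LSD2/eGFP/Flag stood apart from all others. Over single-gene probe sets they correlated at 0.908 to 0.912 with eGFP/Flag arrays and at 0.862 to 0.868 with arrays of either shRNA, against at least 0.995 within each group and 0.938 to 0.951 between eGFP/Flag and shRNA arrays. Of 13 markers typical of MDA-MB-231, 2 (VIM and MSN) were bright on the LSD2/eGFP/Flag arrays and CD44, ANXA1, AXL, NT5E and TGFBI were low, while 11 were bright on the eGFP/Flag arrays and 12 on the LSD2 shRNA and scramble arrays. The mean log2 level of the 13 markers was 6.80 to 6.96 on the LSD2/eGFP/Flag arrays and 11.81 to 11.83 on the eGFP/Flag arrays. Neuronal markers averaged 7.67 to 7.75 on the LSD2/eGFP/Flag arrays (NEFM, TUBB2B and TUBB3 bright, 4 of 10 low) and 5.63 to 5.82 on the eGFP/Flag arrays (TUBB3 bright, 7 of 10 low). Luminal markers averaged 6.82 to 6.92 and 7.55 to 7.67, fibroblast and endothelial markers 5.58 to 5.91 and 5.27 to 5.41, and blood markers 5.26 to 5.32 and 5.31 to 5.39, each on LSD2/eGFP/Flag and then on eGFP/Flag arrays. On these markers the 3 arrays go against the cell line that their label names. Whether a difference between LSD2/eGFP/Flag and eGFP/Flag arrays is one of the vector, of the stable line or of the cells themselves cannot be told apart, and the part of the marker differences in the values of the 6 genes was not tested. KDM1B had 0 single-gene probe sets among those used here, and its level could not serve to check the labels.

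The level of CDKN2A depended on the probe set. Probe set 207039_at was at 10.76, 10.47 and 10.41 log2 units on the LSD2/eGFP/Flag arrays, against 4.11, 4.25 and 4.30 on the eGFP/Flag arrays. On the shRNA arrays it was at 3.89, 4.24 and 4.39 with the LSD2 shRNA and at 4.15, 4.37 and 4.39 with the scramble shRNA. The 3 LSD2/eGFP/Flag arrays thus held it at percentiles 84.4 to 87.6 and the 9 others at 7.79 to 16.1, with no overlap. Probe set 209644_x_at was at 10.71, 10.68 and 10.70 log2 units on the LSD2/eGFP/Flag arrays, against 5.90, 5.84 and 5.88 on the eGFP/Flag arrays. Its values were 6.35, 6.35 and 6.39 with the LSD2 shRNA and 6.35, 5.94 and 6.31 with the scramble shRNA. It too was bright on the 3 LSD2/eGFP/Flag arrays (percentiles 86.8 to 87.2), but on the 9 others it lay above the low range, at percentiles 34.3 to 45.7. The suffix _x_at marks probe sets whose probes can also match other transcripts.

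The third CDKN2A probe set, 211156_at, did not follow. It was at 4.99, 5.09 and 5.05 log2 units on the LSD2/eGFP/Flag arrays and at 5.04, 4.99 and 5.01 on the eGFP/Flag arrays, so these groups overlapped, and it was low on all 12 arrays (percentiles 9.28 to 22.1). The group means differed by 6.33 log2 units for 207039_at, 4.82 for 209644_x_at and 0.03 for 211156_at, LSD2/eGFP/Flag minus eGFP/Flag. The SD of the 3 arrays was at most 0.19 in these groups. Because this contrast chose the genes, these differences are given without a test, and where the eGFP/Flag arrays are low, here and for the other genes, their sizes have no order.

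CDKN2B, the other inhibitor of CDK4 and CDK6 at this locus, was low throughout. Its probe set 207530_s_at was at 4.70, 4.80 and 4.74 log2 units on the LSD2/eGFP/Flag arrays, against 4.62, 4.61 and 4.79 on the eGFP/Flag arrays. It was at 4.70, 4.70 and 4.87 with the LSD2 shRNA and at 4.70, 4.76 and 4.70 with the scramble shRNA. All 12 arrays held it between percentiles 14.5 and 21.7, and the groups overlapped. The antisense gene CDKN2A-AS1, which lies at the same place as CDKN2A, was also low on all 12 arrays, at percentiles 11.6 to 14.4 on the LSD2/eGFP/Flag arrays and 11.8 to 18 on the eGFP/Flag arrays.

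The 5 probe sets of MTAP split into 3 kinds. Probe set 204956_at was at 8.15, 8.11 and 7.84 log2 units on the LSD2/eGFP/Flag arrays, against 4.51, 4.44 and 4.28 on the eGFP/Flag arrays, a difference of 3.62 between the means. It was at 2.41, 2.44 and 2.77 with the LSD2 shRNA and at 2.45, 2.49 and 2.46 with the scramble shRNA. The LSD2/eGFP/Flag arrays held it at percentiles 56.9 to 60.4, above all 9 others (0.612 to 13.6) but below the bright range. Probe set 216685_s_at had the same course, at 7.15, 7.03 and 6.98 on the LSD2/eGFP/Flag arrays and 4.40, 4.57 and 4.42 on the eGFP/Flag arrays. It lay at percentiles 47.9 to 50.1 on the LSD2/eGFP/Flag arrays and 11.3 to 17.3 on the 9 others.

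For 211363_s_at the LSD2/eGFP/Flag arrays (4.68, 4.64 and 4.71) did not overlap the eGFP/Flag arrays (3.83, 4.10 and 3.97), yet all 12 values were low, with a gap of 0.414 percentile points between the lowest LSD2/eGFP/Flag array and the highest of the 9 others. Probe set 217134_at was low on all 12 arrays as well, at 4.56, 4.68 and 4.53 on the LSD2/eGFP/Flag arrays and 4.33, 4.44 and 4.43 on the eGFP/Flag arrays. Probe set 211364_at was neither low nor bright anywhere, at 6.33, 6.54 and 6.38 on the LSD2/eGFP/Flag arrays and 6.25, 6.17 and 6.45 on the eGFP/Flag arrays, with overlapping groups. It is the brightest MTAP probe set over the 12 arrays, so a choice of the brightest probe set alone would show a difference of 0.13 log2 units for MTAP.

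KLHL9 encodes a substrate adaptor of the CUL3 ubiquitin ligase, known for acting on the mitotic kinase Aurora B. Its probe set 213233_s_at was at 10.78, 11.11 and 10.77 log2 units on the LSD2/eGFP/Flag arrays, against 5.78, 5.11 and 5.42 on the eGFP/Flag arrays, a difference of 5.45. With the LSD2 shRNA it was at 4.43, 4.50 and 4.50, and with the scramble shRNA at 4.50, 4.32 and 4.27. It was bright on the 3 LSD2/eGFP/Flag arrays (percentiles 87.7 to 90.3) and low on 8 of the 9 others, with eGFP/Flag replicate 1 just above the low range at 33.4. Probe set 213117_at was at 7.82, 8.15 and 7.94 on the LSD2/eGFP/Flag arrays, against 5.02, 5.53 and 4.23 on the eGFP/Flag arrays, a difference of 3.04. Its eGFP/Flag arrays had an SD of 0.66 and spread over percentiles 9.02 to 29.6, still under the 57.1 to 60.3 of the LSD2/eGFP/Flag arrays.

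FOCAD encodes focadhesin, a large protein that has been linked to the SKI complex of cytoplasmic RNA decay. Its single probe set 218503_at was at 9.60, 9.57 and 9.61 log2 units on the LSD2/eGFP/Flag arrays, against 4.44, 4.20 and 4.81 on the eGFP/Flag arrays, a difference of 5.11. With the LSD2 shRNA it was at 3.54, 3.67 and 3.67, and with the scramble shRNA at 3.51, 3.49 and 3.67. Percentiles were 75.8 to 76.6 on the LSD2/eGFP/Flag arrays and 7.93 to 17.5 on the 9 others, so FOCAD was low on 9 arrays and fell just short of the bright range on 3.

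MLLT3 encodes AF9, a reader of acylated histone H3 that works in the super elongation complex. It differed from FOCAD, KLHL9, MTAP and CDKN2A in that neither probe set was low on any array. Probe set 204917_s_at was at 9.03, 9.07 and 8.94 log2 units on the LSD2/eGFP/Flag arrays, against 7.39, 7.34 and 7.64 on the eGFP/Flag arrays, a difference of 1.55. It was at 6.86, 7.00 and 7.00 with the LSD2 shRNA and at 7.00, 7.22 and 6.95 with the scramble shRNA. Probe set 204918_s_at was at 8.24, 8.53 and 8.09 on the LSD2/eGFP/Flag arrays, against 6.76, 6.81 and 6.73 on the eGFP/Flag arrays, a difference of 1.52. The LSD2/eGFP/Flag arrays held the first at percentiles 69 to 70.4 and the other at 59.6 to 64.5, and the 9 other arrays at 53 to 56.7 and 33.8 to 47.4.

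**Figure D1:**
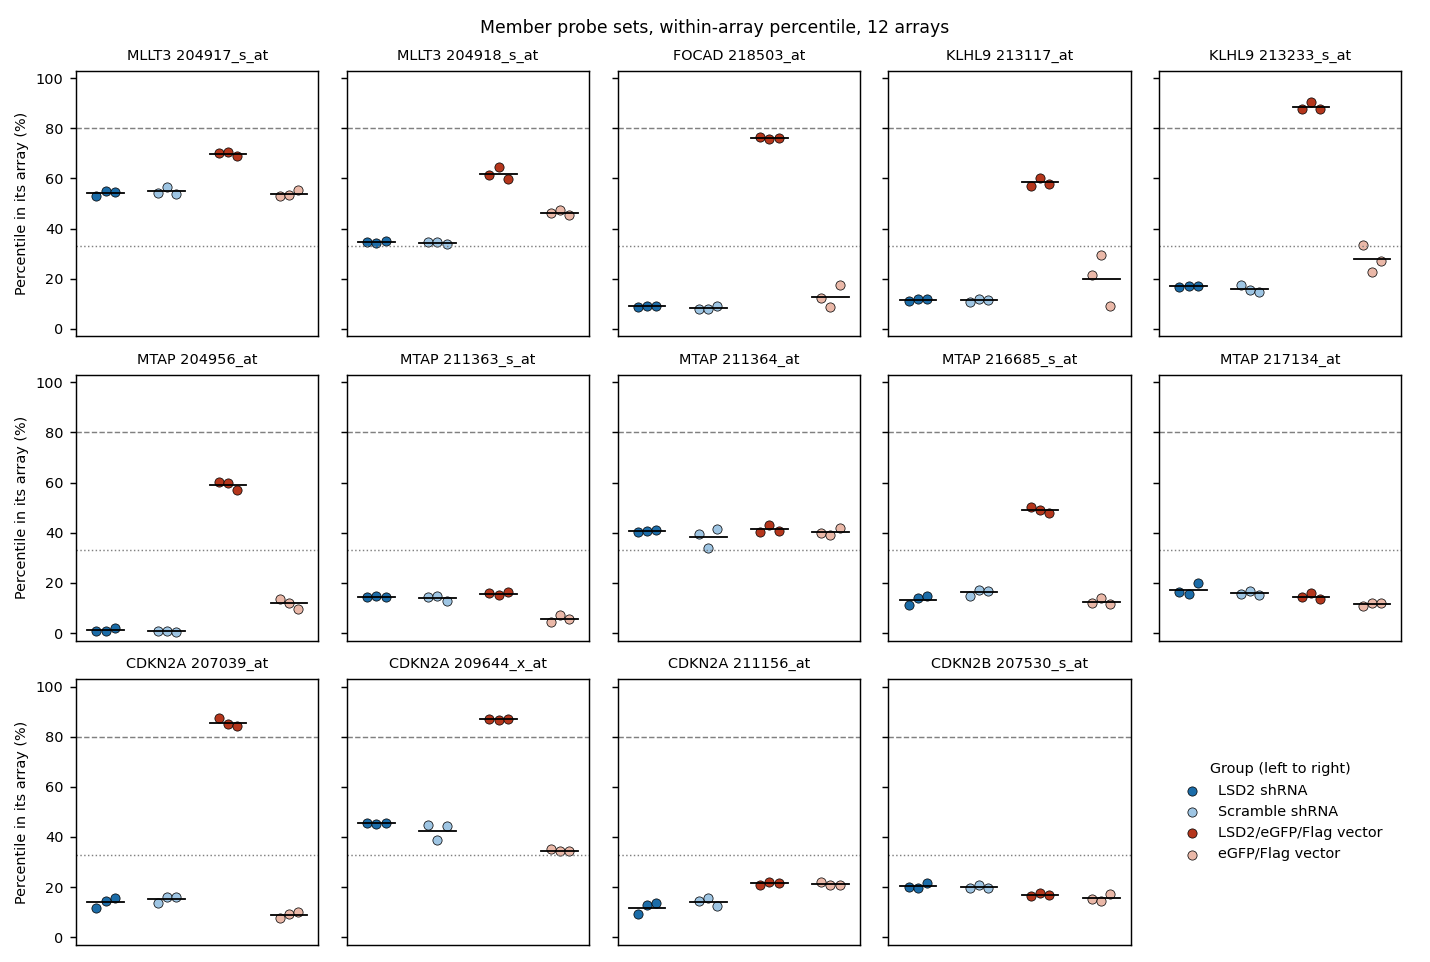
Within-array percentile of each of the 14 probe sets (y axis, percent) on the 12 arrays, 1 point per array and a bar at the group mean, with the groups LSD2 shRNA, Scramble shRNA, LSD2/eGFP/Flag vector and eGFP/Flag vector from left to right. The dotted line marks percentile 33 and the dashed line percentile 80. CDKN2A 207039_at sits at 84.4 to 87.6 on the LSD2/eGFP/Flag arrays and at most at 16.1 on the others, while CDKN2B and CDKN2A 211156_at stay low in every group.

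Counted over the 14 probe sets, 9 were low on all 9 arrays without LSD2/eGFP/Flag (23.9% of all single-gene probe sets), 3 were bright on the 3 LSD2/eGFP/Flag arrays (19.4% of all), and 4 were low on all 12 arrays (21.3% of all). In 10 of the 14, from 5 of the 6 genes, every LSD2/eGFP/Flag array had a higher percentile than each of the 9 others (21.2% of all single-gene probe sets). On the log2 scale 11 of the 14 had LSD2/eGFP/Flag and eGFP/Flag arrays that did not overlap with the LSD2/eGFP/Flag arrays higher (30.3% of all), and 0 with them lower (28.9% of all). Only CDKN2A 207039_at was both low on the 9 arrays and bright on the 3 by these limits (0.215% of all, 41 probe sets). Just outside lay KLHL9 213233_s_at, through 1 eGFP/Flag array at percentile 33.4, FOCAD, through percentiles of 75.8 to 76.6 on the LSD2/eGFP/Flag arrays, and CDKN2A 209644_x_at, through percentiles of 34.3 to 45.7 on the others. In 5 of the 14 every LSD2/eGFP/Flag array was more than 3 log2 units above the highest eGFP/Flag array (0.923% of all), namely FOCAD, KLHL9 213233_s_at, MTAP 204956_at, and CDKN2A 207039_at and 209644_x_at. Nothing is read from these counts, since the pattern chose the genes, and 54.6% of all single-gene probe sets (28.5% higher and 26.1% lower) were called in this contrast by limma. The median difference over the 14 was 2.07 log2 units, against 0.00 over all single-gene probe sets.

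Along chromosome 9 the 20 measured genes from FOCAD to ELAVL2, 13 of them interferon genes, were mostly low on the 9 arrays without LSD2/eGFP/Flag. The ends of this run were set where low genes stop, and it holds genes chosen for low values on these arrays, so its counts restate that choice and stand beside the shares of all genes as a description. Taking the brightest probe set of a gene, 16 of the 20 were low on all 9 (20.9% of all genes), and taking any probe set, 19 were (30.4% of all genes). IFNA17 was the exception, at percentiles 32.2 to 39.3 over the 12 arrays. On the LSD2/eGFP/Flag arrays 14 of the 20 were also low, so that they were low on all 12 arrays (18.3% of all genes). The IFNA genes among the interferon genes are close copies of each other and their probe sets may share signal, so their values are uncertain. Interferon genes made up 12 of those 14, the others being CDKN2A-AS1 and CDKN2B. The genes of the run with higher percentiles on all 3 LSD2/eGFP/Flag arrays by their brightest probe set were FOCAD, KLHL9, CDKN2A and ELAVL2 (23.4% of all genes), the last at percentiles 43 to 49, against 23.9 to 25.3 on the eGFP/Flag arrays.

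On either side the run was bordered by a gene above the low range on every array, CAAP1 and MLLT3. Beyond ELAVL2, an RNA-binding protein gene of neurons, CAAP1 lay at percentiles 89.3 to 90.1 on the LSD2/eGFP/Flag arrays and 90.6 to 91.4 on the eGFP/Flag arrays, and PLAA at 78.1 to 80.6 and 84.1 to 86.2. At the other end lay MLLT3, described above, and past the low SMNP and SLC24A2 the ribosomal protein gene RPS6, at percentiles 99.4 to 99.6 and 98.6 to 99. Since cells that lack a gene and cells that hold it silent give the same low signal, these arrays cannot tell a missing gene from an unexpressed one, nor fewer cells with the RNA from less RNA per cell.

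Among the 40 measured genes nearest to CDKN2A that are not described as members (20 on each side), 10 rose and 11 fell in LSD2/eGFP/Flag against eGFP/Flag (limma, Benjamini-Hochberg adjusted p under 0.05), that is 21 of 40, against 30.8% higher and 25.8% lower of all genes (56.6% in either direction). Of the 5 nearest on the side of MTAP, only IFNA5 was called and fell by 0.34 ± 0.10 (adjusted p = 0.011, 0.054 without eGFP/Flag replicate 2), both groups being low. CDKN2A-AS1 (-0.09 ± 0.10), IFNA1 (-0.04 ± 0.15), IFNA8 (-0.14 ± 0.12) and IFNA2 (0.05 ± 0.09) were not called. Of the 5 nearest on the side of CDKN2B, ELAVL2 rose by 1.53 ± 0.12 and the ciliary transport gene IFT74 by 0.45 ± 0.12, PLAA fell by 0.62 ± 0.10 and CAAP1 by 0.25 ± 0.09, and LRRC19 (-0.06 ± 0.07) was not called. The call of CAAP1 was lost without LSD2/eGFP/Flag replicate 2 or 3 or eGFP/Flag replicate 1 or 3 (adjusted p from 0.063 to 0.108). Chosen after its values were seen, the RNA sensor gene RIGI fell by 2.70 ± 0.10. Among the 40, 5 had higher percentiles on all 3 LSD2/eGFP/Flag arrays than on the 9 others by their brightest probe set (23.4% of all genes).

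**Figure D2:**
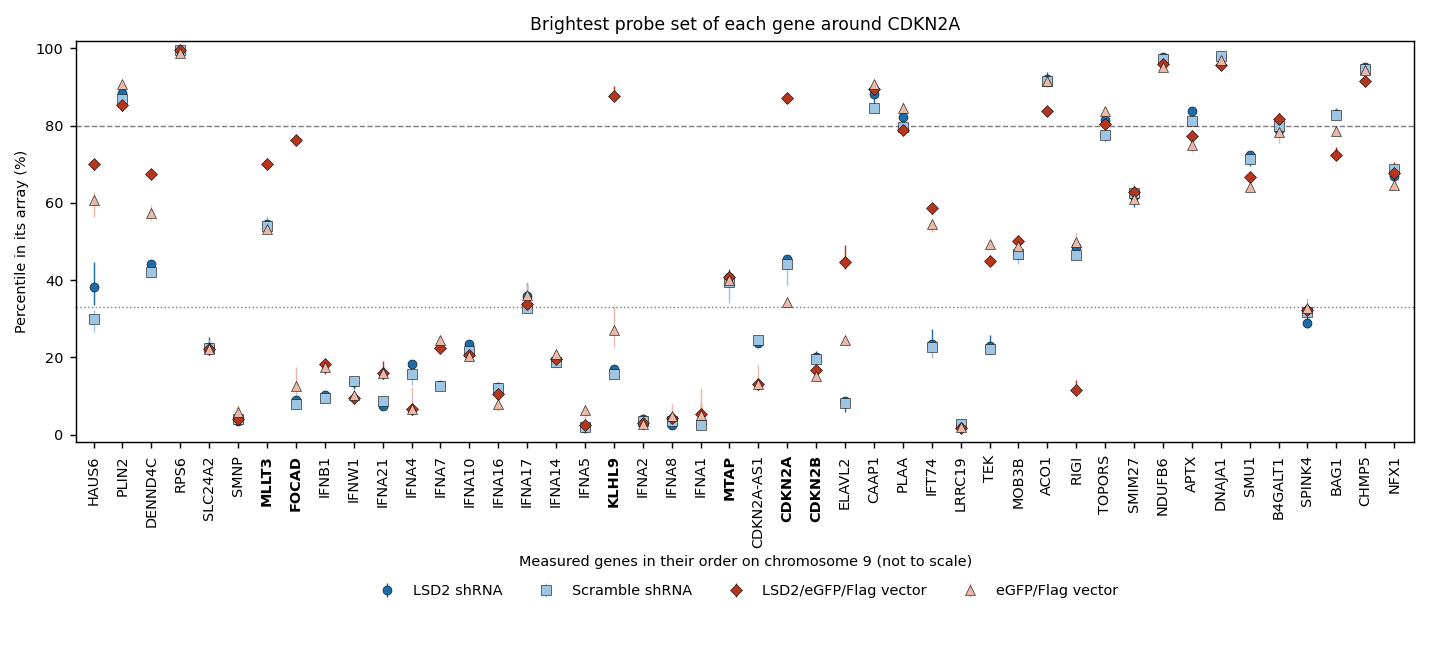
Within-array percentile (y axis, percent) of the brightest probe set of each measured gene around CDKN2A, in gene order along chromosome 9 and not to scale, as the group median with bars from the lowest to the highest of 3 arrays. Members are in bold, the dotted line marks percentile 33 and the dashed line percentile 80. FOCAD, KLHL9 and CDKN2A stand above a run of low genes on the LSD2/eGFP/Flag arrays, CDKN2B does not, and MTAP is shown by its brightest probe set, 211364_at, which is alike in the 4 groups.

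The rule that chose the genes asked for low values on 9 arrays, 6 of them those of the LSD2 shRNA and scramble shRNA. It did not use the difference between these groups, but 10 of the 14 probe sets were low on all 6 arrays, which leaves little room for a difference, so the values of the fit are given as a description and nothing is read from the count. None of the 14 probe sets was called (0 called by limma with Benjamini-Hochberg adjustment over all 19064 single-gene probe sets, 1 of 14 at an unadjusted p under 0.05), against 8.73% of all single-gene probe sets, 3.93% higher and 4.79% lower. The LSD2 shRNA and scramble arrays overlapped in each of the 14, while they did not overlap, with the LSD2 shRNA higher or lower, in 11.7% and 14.5% of all probe sets. The median absolute difference was 0.11 log2 units over the 14 and 0.10 over all.

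The probe set with the unadjusted p under 0.05 was MTAP 216685_s_at, at 3.87, 4.17 and 4.30 log2 units with the LSD2 shRNA and 4.28, 4.47 and 4.47 with the scramble shRNA. Its difference was -0.29 ± 0.11 (SE, limma, unadjusted p = 0.016, adjusted p = 0.117), all 6 values being low. CDKN2A 211156_at was at 3.64, 4.06 and 4.18 with the LSD2 shRNA and at 4.24, 4.33 and 4.04 with the scramble shRNA, a difference of -0.25 ± 0.12 (adjusted p = 0.259). For the other CDKN2A probe sets the 95% interval of the difference ran from -0.41 to 0.15 (207039_at) and from -0.04 to 0.36 (209644_x_at). It ran from -0.13 to 0.20 for CDKN2B, from -0.19 to 0.33 for FOCAD, from -0.19 to 0.42 and -0.47 to 0.51 for KLHL9 (213233_s_at and 213117_at) and from -0.31 to 0.10 and -0.19 to 0.22 for MLLT3 (204917_s_at and 204918_s_at). For MTAP it ran from -0.16 to 0.31 (204956_at), -0.14 to 0.20 (211363_s_at), -0.11 to 0.39 (211364_at) and -0.09 to 0.35 (217134_at). On all 6 shRNA arrays only the MLLT3 probe sets, MTAP 211364_at and CDKN2A 209644_x_at lay above the low range.

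Equal values limit this test. Pairs of shRNA arrays shared between 1051 and 1431 exactly equal values over the table, against 13 to 42 for pairs of vector arrays. CDKN2B had exactly the same value in 6 of the 15 pairs of shRNA arrays and CDKN2A 209644_x_at, FOCAD, MTAP 211363_s_at and MLLT3 204917_s_at in 3 each, so the spread on which their tests rest is partly one of equal values.

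**Figure D3:**
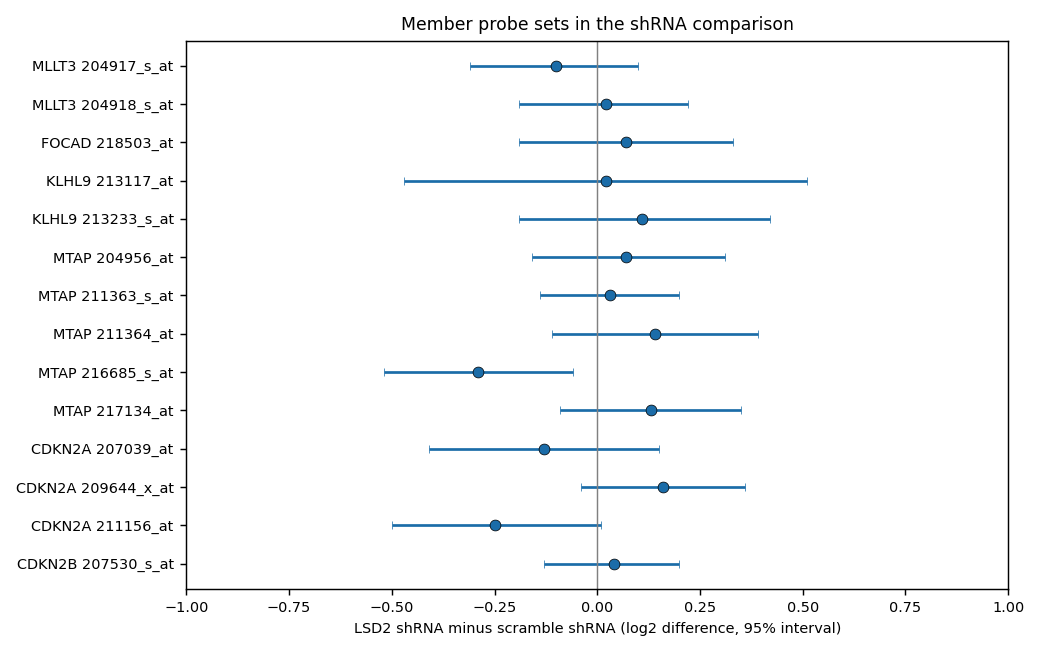
Difference of each of the 14 probe sets between LSD2 shRNA and scramble shRNA (x axis, log2 units, LSD2 shRNA minus scramble shRNA, 3 arrays each), with bars for the 95% interval of the limma fit. The fit takes its spread from all 12 arrays, so the bars are not the spread of the shRNA arrays alone. KLHL9 213117_at has a wide bar with an SD of 0.07 in each shRNA group and 0.66 on the eGFP/Flag arrays. The differences lie between -0.29 and 0.16, and all intervals but that of MTAP 216685_s_at include 0.

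The genes that work with the members were taken from 11 lists of 100 measured genes, by the brightest probe set of each gene. With the LSD2 shRNA, 6 of the 100 rose and 6 fell (4.66% and 5.17% of all genes, 9.82% in either direction). Of 3 measured KLHL9 partners 0 rose and 2 fell, the mitotic kinase AURKB to 9.72, 9.65 and 9.63 log2 units with the LSD2 shRNA, against 10.21, 10.11 and 10.37 with the scramble shRNA (-0.56 ± 0.09, limma adjusted p = 0.001), and the ligase scaffold CUL3 by 0.31 ± 0.07 (adjusted p = 0.015, other probe sets at -0.12 and 0.15). Of 3 SKI complex genes 1 rose, SKIC3 (by 0.59 ± 0.09, adjusted p = 0.002, another probe set at 0.01). Of 8 genes of the cyclin D, CDK4/6 and RB list, on which p16INK4a acts, CDK4 rose by 0.35 ± 0.06 and RB1 by 0.39 ± 0.08 (another probe set at 0.02) and CCND3 fell by 0.25 ± 0.06. CDK6 was at -0.06 ± 0.15 and CCND1 at 0.10 ± 0.12 (another probe set at -0.01). CCND2 was at -0.02 ± 0.10 (0.02 after a shift to equal medians, other probe sets at 0.04 and 0.14). It was low on all 6 shRNA arrays (percentiles 2.61 to 4.21), which leaves little room for a difference.

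Of 5 other CDK inhibitors 1 fell, CDKN1C, the gene of p57 (by 0.78 ± 0.17, other probe sets from -0.77 to -0.20). Of 14 regulators of the INK4 locus, the Polycomb genes PHC1 (0.45 ± 0.10) and SUZ12 (0.28 ± 0.08) rose and 0 fell. Of 9 methionine salvage and polyamine genes the spermine synthase SMS rose by 0.29 ± 0.08 and APIP fell by 0.29 ± 0.07. Of 12 MLLT3 partners 0 rose and 1 fell, the elongation factor ELL3 (by 0.67 ± 0.13). None of 21 E2F genes, 7 genes of the ARF and MDM2 arm, 6 of the PRMT5 and MAT2A list or 13 interferons was called (0 of each by limma, with 6, 0, 2 and 1 at an unadjusted p under 0.05), MDM2 being at 0.08 ± 0.15 (other probe sets from -0.10 to 0.04), PRMT5 at 0.10 ± 0.07 and MAT2A at 0.04 ± 0.10 (another probe set at -0.14). Without each array in turn the 12 calls numbered 7 to 9. Those of AURKB, SKIC3, CDK4, RB1 and ELL3 held in each case. Others were lost as follows: CDKN1C without LSD2 shRNA replicate 3 or scramble replicate 1 or 2, PHC1 without LSD2 shRNA replicate 2 or scramble replicate 3, CUL3 without LSD2 shRNA replicate 1 or 2 or scramble replicate 3, CCND3 without LSD2 shRNA replicate 1 or 3 or any scramble array, APIP and SMS without LSD2 shRNA replicate 1 or 2 or any scramble array, and SUZ12 without any 1 of the 6 arrays.

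Near the locus, 2 of the 40 neighbour genes rose and 0 fell with the LSD2 shRNA (4.66% and 5.17% of all genes), CAAP1 (0.34 ± 0.09, limma adjusted p = 0.037) and TOPORS (0.40 ± 0.09, adjusted p = 0.011), TOPORS being named after its value was seen. TOPORS was not called without LSD2 shRNA replicate 1 (adjusted p = 0.057) or scramble replicate 2 (0.053). CAAP1 was not called on the shRNA arrays alone (0.096), nor without any 1 array other than LSD2 shRNA replicate 3 (0.056 to 0.163).

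In LSD2/eGFP/Flag against eGFP/Flag, 39 of the 100 listed genes rose and 27 fell (30.8% and 25.8% of all genes), on arrays that stood apart over the whole table. Of 8 genes of the cyclin D, CDK4/6 and RB list 4 rose and 3 fell, where CCND2 averaged 10.93 ± 0.10 log2 units on the LSD2/eGFP/Flag arrays and 4.00 ± 0.16 on the eGFP/Flag arrays (SD of 3 arrays each, a difference of 6.93, other probe sets at 1.08 and 2.86), RBL2 rose by 0.83 ± 0.12 and CDK4 rose by 0.29 ± 0.06, while CCND1 fell by 1.54 ± 0.12 (another probe set at -1.69) and RB1 fell by 0.64 ± 0.08 (another probe set at -0.31). CDK6 was at -0.06 ± 0.15, near the low limit in both groups (percentiles 31.3 to 34.1 on LSD2/eGFP/Flag and 31.1 to 38.9 on eGFP/Flag arrays). Of 21 E2F factors and targets 13 rose and 2 fell, among them CCNE1 (1.64 ± 0.08), E2F5 (0.85 ± 0.08, another probe set at 0.21) and MCM2 (0.84 ± 0.09), and their median difference was 0.34, against 0.01 over all genes. Of 7 genes of the ARF and MDM2 arm 3 rose and 0 fell, the stress response genes SESN1 (2.05 ± 0.08), GADD45A (0.95 ± 0.14) and BAX (0.51 ± 0.12, another probe set at 0.15), and MDM2 was at -0.35 ± 0.15 (other probe sets from -0.08 to 0.02, limma adjusted p = 0.070, called after a shift to equal medians and without LSD2/eGFP/Flag replicate 2 or eGFP/Flag replicate 3). MDM2 too lay near the low limit (percentiles 27.3 to 38.2 on LSD2/eGFP/Flag and 35.7 to 41.3 on eGFP/Flag arrays). Of 5 other CDK inhibitors 2 rose and 2 fell, where CDKN1C rose by 1.99 ± 0.17 (other probe sets from 0.31 to 2.17), CDKN3 fell by 1.40 ± 0.08 and CDKN2D fell by 1.34 ± 0.15 (another probe set at -0.10).

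Of 14 regulators of the INK4 locus 5 rose and 6 fell. TWIST1 (5.74 ± 0.16) and TBX3 (3.97 ± 0.11), genes of transcription factors known to repress products of this locus, rose, and, like CCND2, were low on the eGFP/Flag arrays (percentiles 0.0405 to 6.75 for TWIST1, 11.2 to 15.6 for TBX3 and 4.39 to 8.79 for CCND2), so the sizes of these differences have no order. ID1 fell by 2.33 ± 0.17. Of 6 genes of the PRMT5 and MAT2A list 3 rose and 1 fell, where PRMT5 rose by 0.29 ± 0.07 and its partner WDR77 by 0.39 ± 0.13 (another probe set at 0.56) and MAT2B fell by 0.59 ± 0.07, while MAT2A was at -0.09 ± 0.10 with another probe set at -0.79. The call of WDR77 was lost after a shift to equal medians and without LSD2/eGFP/Flag replicate 2 or eGFP/Flag replicate 1 or 3. Of 9 methionine salvage and polyamine genes, the pathway that MTAP feeds, 3 rose and 4 fell, where ADI1 rose by 2.15 ± 0.17 and SRM by 0.79 ± 0.14 and the spermidine acetyltransferase gene SAT1 fell by 2.61 ± 0.25. Of 3 measured KLHL9 partners 2 rose and 1 fell (AURKB rose by 0.55 ± 0.09, RBX1 rose by 0.34 ± 0.09 and CUL3 fell by 0.25 ± 0.07, its other probe sets at -1.18 and -0.83), and of 12 MLLT3 partners 2 rose and 5 fell, where ELL3 rose by 1.49 ± 0.13, MLLT10 rose by 1.13 ± 0.09 (other probe sets from -0.16 to 0.20) and AFF4 fell by 1.01 ± 0.12. AFF4 was low or near the low limit in both groups (percentiles 16.2 to 16.6 on LSD2/eGFP/Flag and 28.6 to 36.2 on eGFP/Flag arrays). Of 3 SKI complex genes SKIC8 rose by 0.37 ± 0.08 (other probe sets at -0.08 and 0.33), SKIC2 fell by 0.42 ± 0.08 and SKIC3 fell by 0.24 ± 0.09 (another probe set at -0.64), the first SKIC3 probe set losing its call without any 1 of the 6 vector arrays. Of 13 interferons 1 rose and 1 fell, IFNA16 (0.19 ± 0.07) and IFNA5, with 12 low on all 12 arrays. IFNA16 was not called on the vector arrays alone, after a shift to equal medians, with a replicate block, or without LSD2/eGFP/Flag replicate 1 or 2 or eGFP/Flag replicate 2.

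**Figure D4:**
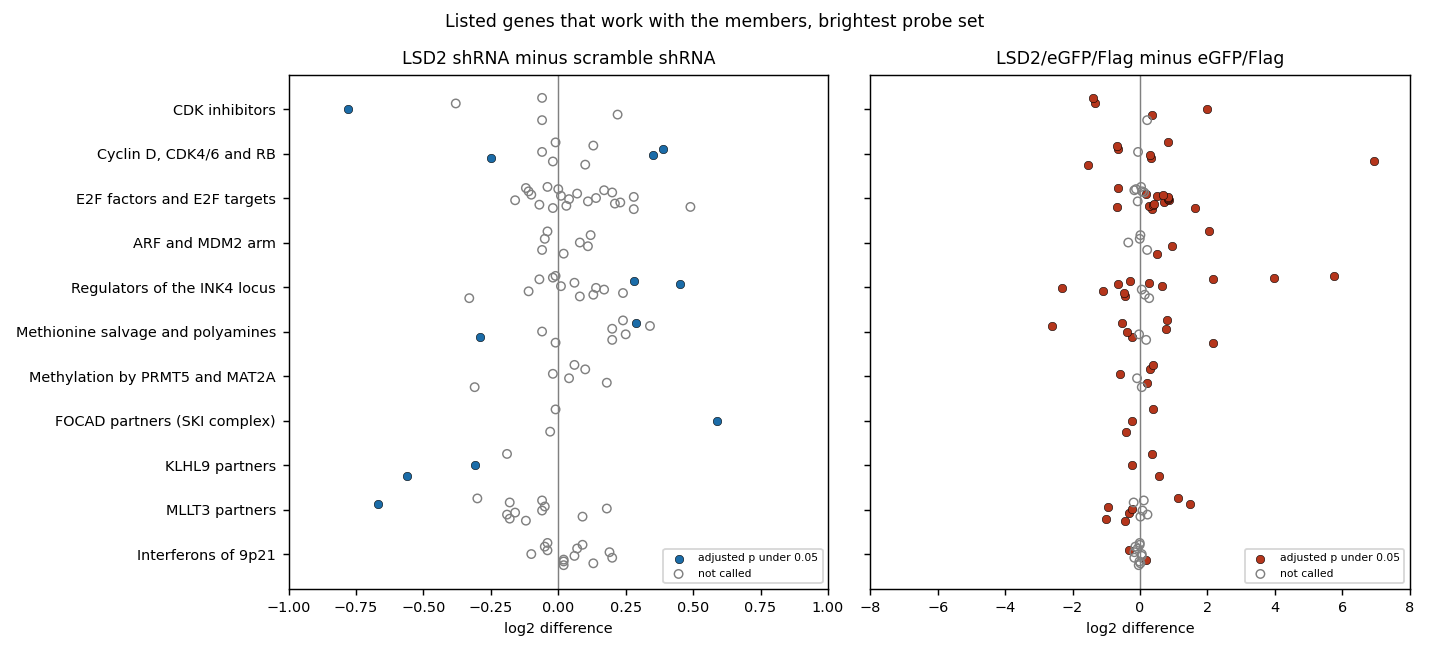
Difference of each listed gene (x axis, log2 units, brightest probe set, 3 arrays a group) for LSD2 shRNA minus scramble shRNA on the left and LSD2/eGFP/Flag minus eGFP/Flag on the right, with 1 row per list and different x scales. Filled points passed an adjusted p under 0.05. With the LSD2 shRNA 12 of 100 genes passed, and with LSD2/eGFP/Flag 66 of 100, CCND2, TWIST1 and TBX3 against low values on the eGFP/Flag arrays.

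The genes outside the locus whose percentiles over the 12 arrays were nearest to those of CDKN2A 209644_x_at, the brightest CDKN2A probe set, were SLC19A1, SRSF11, MFAP2, DUSP9 and HOXB7. Likeness was measured as the sum over the 12 arrays of the absolute difference in percentile, which was 41.7 for SLC19A1, 55.6 for SRSF11, 58.3 for MFAP2, 67.1 for DUSP9 and 69.9 for HOXB7. SLC19A1, a folate carrier gene on chromosome 21, lay at percentiles 84.3 to 85.5 on the LSD2/eGFP/Flag arrays, 29.2 to 31.2 on the eGFP/Flag arrays and 40.1 to 43.7 on the shRNA arrays. The other 4 lie on chromosomes 1, 1, X and 17. The share of all genes on chromosome 9 is not given here, so nothing is read from the chromosomes of these or of the following genes. Apart from CDKN2A, the 41 probe sets that were low on the 9 arrays and bright on the 3 include those of TLE4, DAPK1 and GAS1 on chromosome 9, named after their values were seen, none of which is among the 40 neighbours.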

How the data were processed

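Affymetrix 3′ expression arrays of 12 samples (4 groups, 3 replicates each) were analysed. The deposited log2 values of 22277 probe sets were made by the authors with RMA, per the submitters' processing notes, and its version and chip definition are not stated there. Separate normalization of the shRNA and vector arrays was inferred from their medians and printed decimals, and no gene was tested between them. Names came from GEO's possibly outdated platform annotation, updated through RefSeq GRCh38.p14 gene identifiers (19052 of 19064 single-gene probe sets matched). Probe sets naming several genes (1043) or no listed gene (2108) and 62 controls were left out.

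A mean for each group was fitted with limma 3.58.1 in R 4.3.3 to all 12 arrays and 19064 probe sets (lmFit, eBayes, 8 residual and 4.95 prior degrees of freedom), two-sided, with Benjamini-Hochberg adjustment over all of them and calls at an adjusted p under 0.05. The fit was also run on simulated data with independent normal noise. Such data lack the equal values of the shRNA arrays, and nothing is read from them here. Errors are standard errors of the fit unless named SD. Lists and neighbours use the brightest probe set of a gene over the 12 arrays, and neighbours are the 20 measured genes on each side of CDKN2A. The genes named are all members, the 5 nearest neighbours a side, up to 3 called genes per list and comparison with the largest differences, 8 set genes of the pathways, and the 5 genes nearest in percentile. Members and lists were chosen with earlier results of these data known. Alternatives were a replicate block, the compared arrays alone, cyclic loess, equal medians, leaving out the dimmest probe sets, an intensity trend, 1 probe set a gene, other percentile limits, a log2 limit of 3 units, and leaving out each array. Figures and counts were made with Python 3.11.15 and matplotlib 3.10.9.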

Additional observations from a re-analysis of the deposited data

How the results depend on the processing

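Members called with the LSD2 shRNA numbered 0 under every alternative, from which nothing is read, since low values on these arrays were part of the choice of genes. The lowest adjusted p was 0.053, for MTAP 216685_s_at with a replicate block and without LSD2 shRNA replicate 3 (main value 0.117). The deviations of same-numbered vector arrays correlated at -0.156, 0.136 and 0.149, with little sign of pairing. Those of same-numbered shRNA arrays correlated at 0.003, 0.456 and 0.385, and those of differently numbered ones at -0.445 to 0.095. Deviations within a group of 3 sum to 0, so the values of replicates 2 and 3 are not separate and mainly reflect 1 contrast between these replicates. That contrast went the same way in both shRNA groups, and replicate 1 showed no such relation. The labels state no pairing, so the main fit has no replicate block, which is given as an alternative. With the block 2099 single-gene probe sets were called with the LSD2 shRNA, against 1664 without it. The block ended the calls of CCND3 (limma adjusted p = 0.053) and SMS (0.075) with the LSD2 shRNA and of IFNA16 (0.057) in the vector comparison. On the 6 shRNA arrays alone, without the arrays that stand apart, SMS (0.091) and SUZ12 (0.071) were not called, nor were APIP (0.101), CCND3 (0.091) and CUL3 (0.054) after a shift to equal medians.

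The single member low on 9 arrays and bright on 3 became 3 with the low limit at percentile 50, 2 with the bright limit at percentile 67, 0 at percentile 90 and 5 with a level more than 3 log2 units above the highest eGFP/Flag array. It ranged from 1 to 2 without each array, with 2 without eGFP/Flag replicate 1. Neighbour genes called with the LSD2 shRNA numbered 2, and 1 on the shRNA arrays alone, ranging from 0 to 2 without each array. They numbered 3 with a replicate block, after a shift to equal medians and with the dimmest probe sets left out. Listed genes called with the LSD2 shRNA numbered 9 after a shift to equal medians and 15 with an intensity trend, against 12 in the main fit. Without each array, single-gene probe sets called with the LSD2 shRNA ranged from 929 to 1348 (1664 with all), the lowest counts being 933 without LSD2 shRNA replicate 1, 929 without scramble replicate 1 and 1030 without scramble replicate 2, and listed genes from 7 to 9 (12 with all). In the vector comparison 10404 probe sets were called, and 6824 when only the brightest probe set of each gene was tested, where fewer features enter.

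Directions of small differences that were not called turned. After a shift to equal medians these were CCND2 (0.02), CDKN2A-AS1 (0.02), ELAVL2 (0.02) and IFNA5 (0.00) with the LSD2 shRNA and IFNA2 (-0.01) in the vector comparison. Without each array in turn the LSD2 shRNA differences ranged from -0.24 to 0.01 for CDKN2A 207039_at, -0.02 to 0.06 for CDKN2B, -0.03 to 0.06 for KLHL9 213117_at, -0.01 to 0.03 for MLLT3 204918_s_at and, for MTAP, -0.04 to 0.14 (204956_at), -0.02 to 0.06 (211363_s_at), -0.00 to 0.24 (211364_at) and -0.01 to 0.20 (217134_at). For other genes they ranged from -0.01 to 0.18 for CCND1, -0.06 to 0.07 for CCND2, -0.17 to 0.07 for CDK6, -0.06 to 0.02 for CDKN2A-AS1, -0.09 to 0.09 for ELAVL2, -0.05 to 0.10 for IFNA1, -0.03 to 0.11 for IFNA2, -0.14 to 0.02 for IFNA5, -0.17 to 0.04 for IFNA8 and -0.04 to 0.10 for MAT2A. The vector differences ranged from -0.18 to 0.08 for CDK6, -0.16 to 0.03 for CDKN2A-AS1, -0.18 to 0.17 for IFNA1 and -0.03 to 0.11 for IFNA2. The cause of these changes was not tested.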
